A study of Rattus norvegicus with 23 samples.

Results

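The data described here were the liver expression profiles of 11 rats that received a vehicle and no test compound, out of 23 microarray samples in the series. The 11 were taken from the sample labels, which named the vehicle given to each rat. All were male Sprague Dawley rats, an outbred stock, a few weeks old when dosing began, and all were gavaged over several days, fasted overnight and sampled from the left lateral liver lobe. Corn oil at 5 ml/kg was given to 3 rats, corn oil at 2 ml/kg to 3 rats, 35% ethanol at 2 ml/kg to 3 rats and water at 10 ml/kg to 2 rats. The other 12 samples came from compound-treated rats and are used only for their spread within groups. Corn oil at 2 ml/kg and water shared 1 leading code in their sample titles, whereas corn oil at 5 ml/kg and 35% ethanol each had a code of its own. Each code was taken as 1 in-life study, which the labels do not state. For the groups with a code of their own, vehicle, volume and study then cannot be told apart.

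Each array measured biotin-labelled RNA of 1 rat on the Affymetrix Rat Genome 230 2.0 chip, and each value is a deposited log2 signal normalized by the Robust Multi-array Average (RMA) method. After 57 control probe sets were set aside, 31042 probe sets were analysed, of which 20826 named a single gene, 436 named several and 9780 named none. Each of 14217 genes was represented by its brightest single-gene probe set. Probe sets differ in how strongly they bind, so a signal rank orders array signals and does not order transcript amounts between genes.

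The liver makes most plasma proteins, clears drugs and steroids through cytochrome P450 enzymes, synthesises bile acids and switches between storing and burning fuel with feeding and fasting. In rats, many hepatic genes differ between the sexes because the pituitary releases growth hormone in pulses in males and more steadily in females. Besides hepatocytes, the organ holds resident macrophages (Kupffer cells), sinusoidal endothelial cells, stellate cells and bile duct cells. In whole tissue, fewer cells of a type and less RNA per cell cannot be told apart.

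The arrays were alike in most respects, with medians of 8.95 to 9.02 log2 and Pearson correlations of 0.991 to 0.995 between rats of a group. The array of corn oil 5 ml/kg rat 2 stood apart at the top of the scale: its highest signal was 14.57 log2, against 15.95 to 15.99 on the other 10 arrays, and 0 of its probe sets exceeded 15 log2, against 31 to 34 on the others. Results that rest on it are given with and without it. The difference between the 3' and 5' actin control probe sets, a measure of RNA integrity, was 0.756 to 1.05 log2, highest in 35% ethanol rat 3. The male label was checked with Eif2s3y and Uty, which lie on the Y chromosome and read 10.72 to 11.12 log2 and 10.89 to 11.27 log2 over the 11 rats. Xist, the RNA of the inactive X chromosome, was at 7.93 to 8.46 log2.

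The brightest genes of the vehicle-treated liver encoded secreted plasma proteins. Alb (albumin) held signal rank 1 on all 11 arrays, with a mean of 15.84 log2, and Apoe (apolipoprotein E) held rank 2 on all of them, at 15.70 log2. With all probe sets of a gene averaged in place of the brightest, Apoe ranked 2424 and Gc, at rank 4 otherwise, ranked 62. Albumin and Apoe were followed by C3 (complement), Gc (vitamin D binding protein), Apoc3, Ttr (transthyretin), Hp (haptoglobin), Serpina1 (alpha-1-antitrypsin) and Ahsg (fetuin A), between 15.66 and 15.60 log2. The 25 brightest genes also held 2 subunits of cytochrome c oxidase encoded by mitochondrial DNA, COX2 and COX1, the P450 enzymes Cyp2c7 and Cyp2e1, the male urinary protein gene Rup2, and Fabp1, which carries fatty acids in the hepatocyte. Between 23 and 25 of these 25 genes were also among the 25 brightest of each single array.

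**Figure D1:**
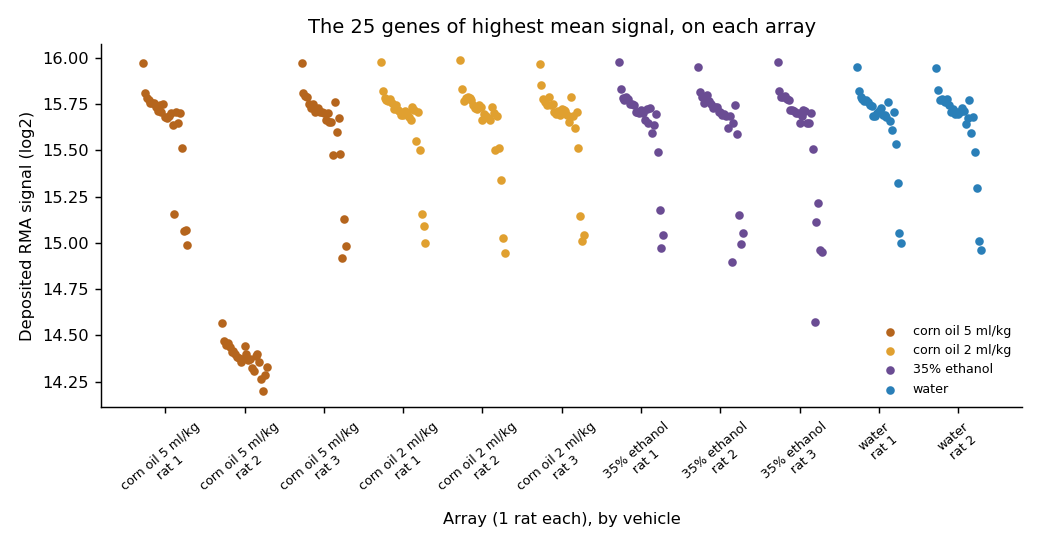
Deposited RMA signal (log2, y axis) of the 25 genes of highest mean signal on each of the 11 arrays (x axis, 1 rat each), coloured by vehicle; each point is 1 gene. On corn oil 5 ml/kg rat 2 they sit between 14.20 and 14.57 log2, under most of their values on the other arrays.

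Alb read 15.97, 14.57 and 15.98 log2 in the corn oil 5 ml/kg rats, 15.98, 15.99 and 15.97 log2 in the corn oil 2 ml/kg rats, 15.98, 15.95 and 15.98 log2 in the 35% ethanol rats and 15.95 and 15.95 log2 in the water rats. Its 10 other values thus lay within a narrow band, with corn oil 5 ml/kg rat 2 well below them. The same array set the spread of the whole top of the ranking. The residual SD, which is the spread left after each vehicle group's mean is subtracted, had a median of 0.41 log2 over the 25 brightest genes with all rats and 0.016 log2 without that array. Normalization to a common distribution gives genes of the same top rank nearly the same value on every array. The array of corn oil 5 ml/kg rat 2 did not share the distribution of the others at the top. Whether the method sets the narrow spread on the other arrays was not tested, and that spread is not read as steadiness of these transcripts. Serpina3l, a serine protease inhibitor, kept a residual SD of 0.38 log2 without it, because 35% ethanol rat 3 read 14.57 log2 while the other 9 rats read 15.68 to 15.75 log2. Cyp2e1, which oxidises ethanol among other small molecules, read 14.90 log2 in 35% ethanol rat 2 and 15.59 to 15.77 log2 in the other 9.

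Lists of marker genes placed the tissue as liver. The 16 measured hepatocyte markers had a median signal percentile of 99.6 among the 14217 genes, and the 32 plasma protein and apolipoprotein genes one of 99.8. Macrophage markers lay at a median percentile of 79.6, endothelial markers at 68.5 and stellate cell and fibroblast markers at 51.0. Cholangiocyte markers lay at 14.6, pancreatic acinar markers, a check for neighbouring tissue, at 12.5 and neutrophil markers at 8.19. Machinery shared by all cells was also bright: the 38 cytoplasmic ribosomal protein genes had a median percentile of 97.5 and the 60 genes of the respiratory chain and ATP synthase one of 96.1. The order of signals was similar in all rats, with Spearman correlations across genes of 0.988 to 0.994 over the 10 pairs of arrays within groups and 0.983 to 0.994 over the 45 pairs between groups, where genes are not independent replicates.

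Most genes differed little between rats of the same vehicle group. The residual SD had a median of 0.116 log2 over the 14217 genes, a 5th percentile of 0.0560 log2 and a 95th percentile of 0.262 log2. In 272 genes the rats of at least 1 group spanned 1 log2 or more (233 genes without corn oil 5 ml/kg rat 2), in 24 genes they spanned 2 log2 or more (22 without it) and in 4 genes 3 log2 or more (4 without it). The spread was not confined to dim genes. With genes split by signal into 10 bins of like size, the median residual SD was 0.0931 log2 in the dimmest bin, 0.117 to 0.126 log2 in the 8 between and 0.101 log2 in the brightest.

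**Figure D2:**
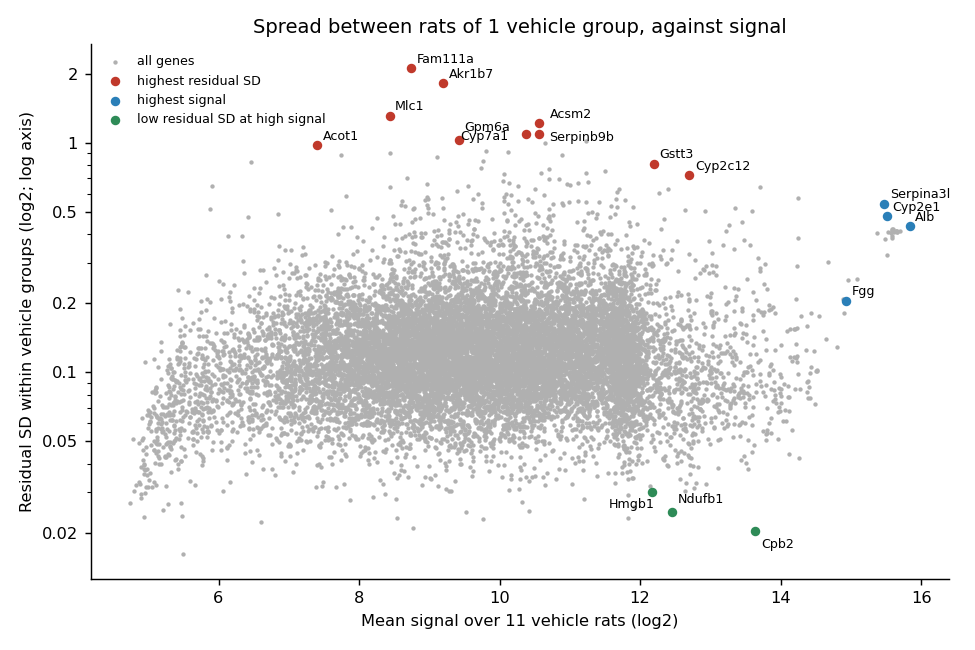
Residual SD within vehicle groups (log2, log axis) against mean signal over the 11 vehicle rats (log2); each point is 1 of 14217 genes, with named genes in colour. Fam111a and Akr1b7 lie at the top, at 2.11 and 1.81 log2, and the group of points at the far right holds the brightest genes, raised by 1 array.

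A probe set was called hypervariable where its residual variance exceeded the trend of variance with signal at an adjusted p below 0.05 (limma's robust fit of the variance prior, Benjamini-Hochberg over all probe sets). With 7 residual degrees of freedom, 3 of 31042 probe sets were called (0.00966%), and 1718 had an unadjusted p below 0.05. They belonged to Abhd3, Fam111a and Akr1b7. Among the probe sets that represented genes, 2 of 14217 were called (0.0141%), since the Abhd3 probe set was not the brightest of its gene. The count was 6 without corn oil 2 ml/kg rat 1, 7 without corn oil 2 ml/kg rat 3, 7 without 35% ethanol rat 1 and 12 without 35% ethanol rat 3. It was 0 with 1 variance prior for all signals.

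Abhd3, a lipase that acts on phospholipids with medium-length chains, was present at 2 levels. Probe set 1382137_at read 10.62 log2 in corn oil 2 ml/kg rat 3 and 10.30 log2 in water rat 2, against 5.18 to 5.45 log2 in the other 9 rats (residual SD 2.13 log2, adjusted p = 0.00674 by limma). No value lay between. The second probe set of the gene, 1381773_at, was brighter and had a residual SD of 0.18 log2. Its values in the same rats were 8.56 and 8.30 log2, against 8.03 to 8.42 log2 in the others, so the 2 levels were seen by 1 probe set alone.

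A search for such patterns, made after these values were seen, asked which probe sets had their 11 values in 2 levels at least 2 log2 apart and each at most 1.5 log2 wide. It found 4 of 31042 probe sets (0.0129%). Besides Abhd3 they belonged to Ugt2b, RT1-Bb and Sgo1. Ugt2b, an enzyme that couples glucuronic acid to steroids and drugs, read 7.38 log2 in corn oil 5 ml/kg rat 2 and 11.42 to 12.77 log2 in the other 10 rats by probe set 1385247_at. Its brighter probe set, 1387825_at, also had its lowest value there, 11.59 log2, against 13.59 to 14.27 log2 in the others. This drop was deeper than that of the 25 brightest genes on the same array, and the residual SD of the brighter probe set was 0.64 log2 with the array and 0.15 log2 without it.

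RT1-Bb, the beta chain of a class II histocompatibility molecule, read 10.23 and 9.84 log2 in corn oil 5 ml/kg rats 1 and 2 and 10.54 log2 in water rat 2 by probe set 1371033_at, against 6.47 to 6.99 log2 in the other 8 rats. Its second probe set, 1371065_at, did not share this pattern: it ranged from 9.35 to 11.45 log2, with its lowest value in 35% ethanol rat 3. Sgo1, which protects the cohesion of sister chromatids, read 11.26 log2 in corn oil 2 ml/kg rat 2 and 8.01 to 8.45 log2 in the other 10. In the 12 compound-treated rats, Abhd3 and RT1-Bb were above the midpoint of the 2 levels in 3 rats each, Ugt2b was below it in 5 and Sgo1 was above it in 0.

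Fam111a, a protease needed for DNA replication past obstacles in human cells, had the largest residual SD of any gene, 2.11 log2 (adjusted p = 0.0179 by limma). It read 7.13, 6.59 and 11.12 log2 in the corn oil 5 ml/kg rats, 7.06, 9.72 and 9.71 log2 in the corn oil 2 ml/kg rats, 7.65, 8.06 and 11.02 log2 in the 35% ethanol rats and 10.95 and 7.10 log2 in the water rats. Every vehicle group held both high and low rats, and the groups overlapped throughout. In the compound-treated groups its residual SD was 1.81 log2. Only probe set 1371970_at named this gene alone, so its spread could not be compared with a second probe set. The call was lost after added quantile normalization (adjusted p = 0.0561 by limma) and without a variance trend (0.0762).

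Akr1b7, an aldo-keto reductase that stood on the list of female-predominant liver genes, had a residual SD of 1.81 log2 (adjusted p = 0.0281 by limma). It read 9.81, 11.33 and 11.29 log2 in the corn oil 5 ml/kg rats, 7.77, 7.53 and 11.57 log2 in the corn oil 2 ml/kg rats, 9.24, 10.96 and 6.65 log2 in the 35% ethanol rats and 8.45 and 6.57 log2 in the water rats. Corn oil 2 ml/kg rat 3 was thus far above both of its group mates, and 35% ethanol rats 2 and 3 differed by 4.31 log2. Akr1b7 too had a single probe set naming it alone, 1368569_at. The call was lost without 35% ethanol rat 2 (adjusted p = 0.0850 by limma), after added quantile normalization (0.0811) and without a variance trend (0.102).

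The next genes in the order of spread were named after their values were seen, and none passed the adjusted threshold. Cyp7a1, the rate-limiting enzyme of bile acid synthesis, had a residual SD of 1.09 log2. It read 9.62, 8.71 and 10.72 log2 in the corn oil 5 ml/kg rats, 11.14, 11.49 and 9.54 log2 in the corn oil 2 ml/kg rats, 9.10, 11.84 and 10.82 log2 in the 35% ethanol rats and 10.94 and 10.18 log2 in the water rats. The widest gap within a group was between 35% ethanol rats 2 and 1. Nr0b2, the small heterodimer partner that represses Cyp7a1, had a residual SD of 0.39 log2 and was lowest, at 9.77 log2, in 35% ethanol rat 1. Cyp8b1, the hydroxylase that directs the pathway towards cholic acid, had one of 0.31 log2.

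Acsm2, a mitochondrial synthetase of medium-chain acyl-CoA, had a residual SD of 1.22 log2. It read 10.04, 11.44 and 10.84 log2 in the corn oil 5 ml/kg rats, 11.28, 11.78 and 9.08 log2 in the corn oil 2 ml/kg rats, 9.62, 11.54 and 10.58 log2 in the 35% ethanol rats and 8.68 and 11.30 log2 in the water rats. The lowest rat of each group was at least 1 log2 below a group mate, with water rat 1 and corn oil 2 ml/kg rat 3 lowest of all.

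Acot1, a cytosolic thioesterase that splits long-chain acyl-CoA, varied mostly within the corn oil 5 ml/kg group (residual SD 0.98 log2). It read 11.06, 9.29 and 7.59 log2 in the corn oil 5 ml/kg rats, 6.47, 6.50 and 7.26 log2 in the corn oil 2 ml/kg rats, 6.72, 6.58 and 6.47 log2 in the 35% ethanol rats and 6.45 and 7.08 log2 in the water rats. Acot3 and Acot2, relatives in the peroxisome and mitochondrion, also had their highest means in corn oil 5 ml/kg rats, with Acot2 at 13.02, 12.62 and 12.33 log2 there. Probe sets of these close relatives may share transcripts. Fgf21, a fasting hormone made by the liver, read 11.38 and 11.35 log2 in corn oil 5 ml/kg rats 1 and 2 and 10.02 log2 in rat 3.

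**Figure D3:**
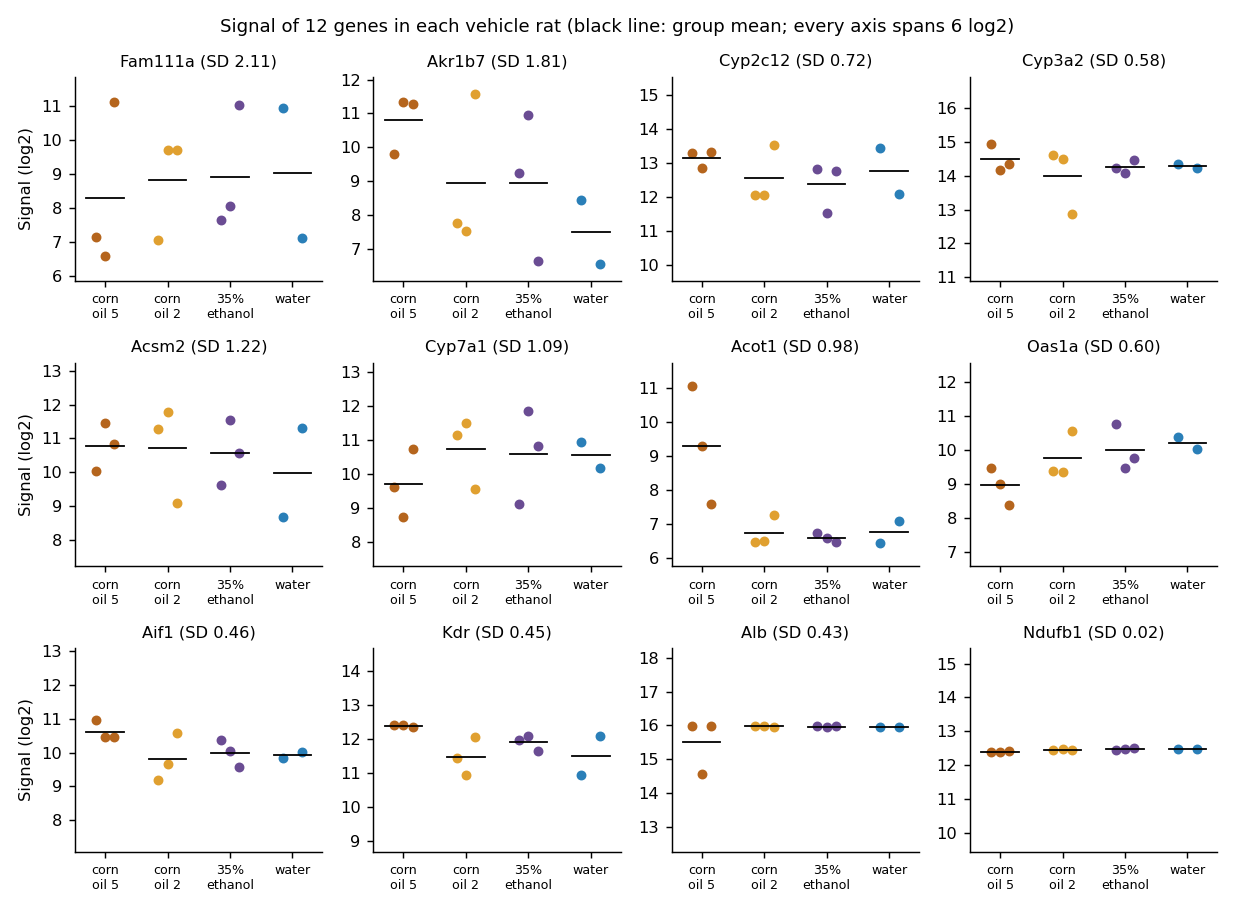
Signal (log2) of 12 genes in each vehicle rat; points are rats, black lines group means, and every axis spans 6 log2. Fam111a and Akr1b7 spread over several log2 within groups, Acot1 mainly among the corn oil 5 ml/kg rats, and Ndufb1 lay between 12.38 and 12.52 log2 in all 11.

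Mlc1, a membrane protein known from astrocytes, had a residual SD of 1.31 log2. It read 7.39, 8.88 and 8.93 log2 in the corn oil 5 ml/kg rats, 7.31, 11.20 and 9.31 log2 in the corn oil 2 ml/kg rats, 7.31, 7.52 and 7.56 log2 in the 35% ethanol rats and 9.90 and 7.48 log2 in the water rats. The 35% ethanol rats were thus alike at the low end, while each other group held both low and higher rats.

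Pxmp4, a peroxisomal membrane protein, had a residual SD of 1.02 log2. It read 11.90, 12.28 and 11.85 log2 in the corn oil 5 ml/kg rats, 10.23, 11.27 and 11.90 log2 in the corn oil 2 ml/kg rats, 9.89, 12.18 and 10.04 log2 in the 35% ethanol rats and 9.91 and 12.10 log2 in the water rats. Its second probe set gave the same order at the extremes, with 35% ethanol rat 1 lowest at 9.86 log2 and corn oil 5 ml/kg rat 2 highest, as with the first.

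Lox, the lysyl oxidase that cross-links collagen, had a residual SD of 0.91 log2. It read 9.23, 10.80 and 9.85 log2 in the corn oil 5 ml/kg rats, 10.46, 10.86 and 10.61 log2 in the corn oil 2 ml/kg rats, 9.61, 9.40 and 11.22 log2 in the 35% ethanol rats and 10.78 and 8.53 log2 in the water rats. The corn oil 2 ml/kg rats lay close to each other, and the widest gap was between the 2 water rats. Gpm6a, a membrane glycoprotein known from neurons, read 8.62, 10.35 and 7.70 log2 in the corn oil 5 ml/kg rats and 7.35, 9.57 and 9.60 log2 in the corn oil 2 ml/kg rats, but 9.61 to 10.53 log2 in the other 5 rats.

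Other genes with a wide spread had varied roles. Serpinb9b (a protease inhibitor) had a residual SD of 1.09 log2, Inmt (an indolethylamine N-methyltransferase) one of 0.88 log2 and Gstt3 (a glutathione transferase) one of 0.81 log2. Where such genes had a second probe set, it often varied with the first. Over the deviations from group means in the 11 rats, the probe sets of Pxmp4 correlated with r = 0.98, those of Lox with r = 0.99, those of Pip4p2 with r = 0.98 and those of Ugt2b with r = 0.99, while those of RT1-Bb gave r = -0.49.

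Across all 710 genes in the upper 5% of residual SD (4.99% of 14217), 180 had at least 2 probe sets, and the 2 brightest correlated with a median r of 0.72. A correlation above 0.8 was found in 73 of them (40.6%). The median over all 4525 genes with at least 2 probe sets was 0.29, and 435 of them (9.61%) were above 0.8. The edge of the upper 5% lay between Tppp at 0.2621 log2 and Alox15 at 0.2620 log2. Of the 710 genes, 637 stayed in the upper 5% without corn oil 5 ml/kg rat 2.

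Gene lists, which were chosen with earlier results known, were read against that 4.99% and against the median residual SD of all genes, 0.116 log2. Female-predominant liver genes had the highest median of the 33 lists, with all rats, without corn oil 5 ml/kg rat 2 and after quantile normalization. Of 14 measured female-predominant genes, 10 were in the upper 5%, with a median residual SD of 0.42 log2. Of 16 male-predominant genes, 10 were in it (8 without corn oil 5 ml/kg rat 2), with a median of 0.34 log2. Without that rat this median was 0.28 log2, below those of the macrophage (0.31 log2), endothelial (0.31 log2) and interferon-response (0.29 log2) lists. Other wide lists were macrophage markers (7 of 11, median 0.29 log2), endothelial markers (6 of 11, 0.29 log2), interferon-response genes (20 of 36, 0.28 log2) and genes of fasting and the glucocorticoid response (13 of 25, 0.28 log2). At the narrow end stood the 60 genes of the respiratory chain and ATP synthase (0 in the upper 5%, median 0.077 log2), the 38 ribosomal protein genes (0, 0.087 log2) and 14 common reference genes (0, 0.11 log2).

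**Figure D4:**
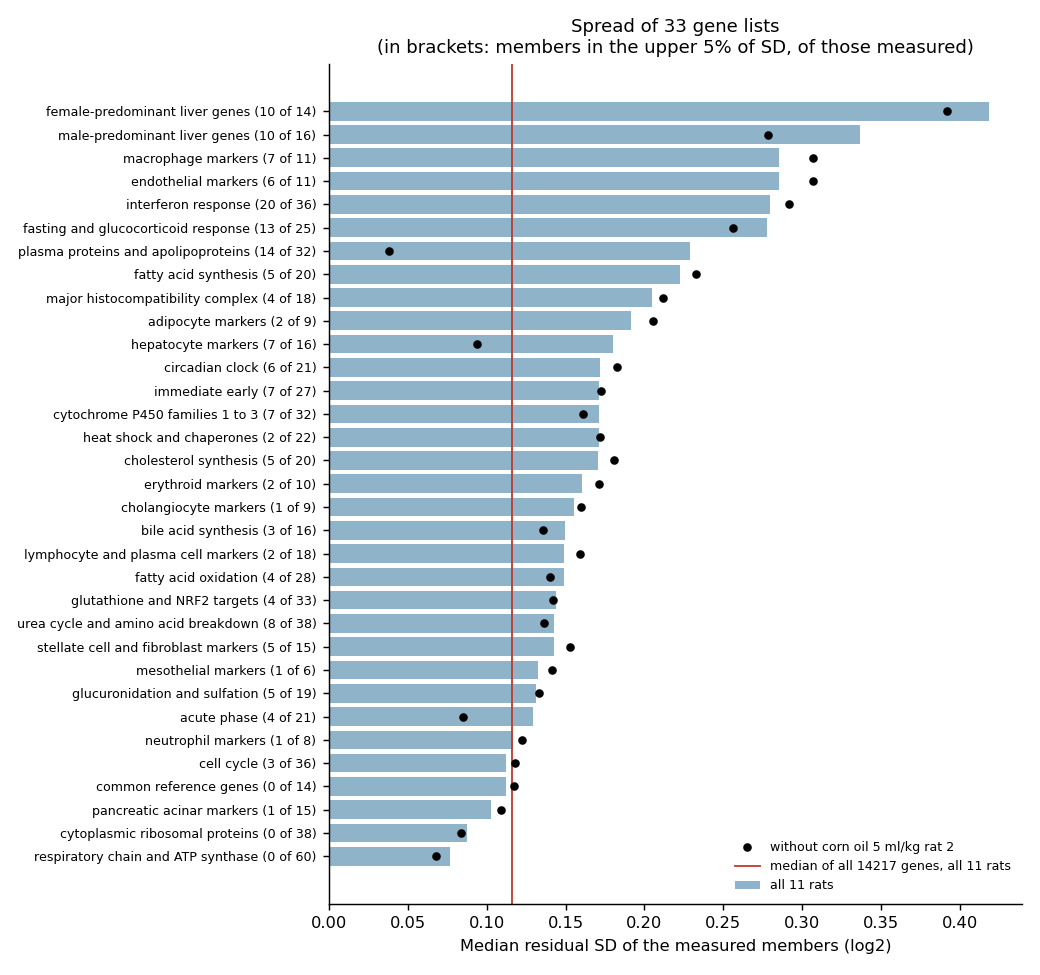
Median residual SD (log2, bars) of the measured members of 33 gene lists over all 11 rats, with the value without corn oil 5 ml/kg rat 2 as a black point; the red line is the median of all genes, 0.116 log2, and brackets give members in the upper 5%. Female-predominant genes stand at the top, and the plasma protein and hepatocyte lists fall below the line without that rat.

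Metabolic lists lay between these ends. Of 32 cytochrome P450 genes of families 1 to 3, 7 were in the upper 5% (5 without corn oil 5 ml/kg rat 2), led by the sex-predominant Cyp2c12 and Cyp3a2 at 0.72 and 0.58 log2. Of 38 genes of the urea cycle and amino acid breakdown, 8 were in it, and Otc, a urea cycle enzyme, read 13.23, 13.29 and 12.43 log2 in the corn oil 2 ml/kg rats. Of 20 fatty acid synthesis genes, 5 were in it. Srebf1, the transcription factor that drives lipid synthesis after feeding, read 10.30 log2 in corn oil 5 ml/kg rat 1 and 11.36 and 11.43 log2 in its group mates. Of 15 stellate cell and fibroblast markers, 5 were in it, and Dcn (decorin) read 8.35 log2 in corn oil 2 ml/kg rat 3, below 9.38 and 9.33 log2 in the rest of that group.

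Gstt3, a glutathione transferase, stood apart in its own list of 33 glutathione and NRF2 target genes, of which 4 were in the upper 5%. It read 10.95 log2 in corn oil 5 ml/kg rat 2 and 10.74 log2 in corn oil 2 ml/kg rat 3, against 12.26 to 13.23 log2 in the other 9 rats. Its residual SD was 0.81 log2 with corn oil 5 ml/kg rat 2 and 0.63 log2 without it.

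The 2 liver-specific lists rested on the array that stood apart. Of 32 plasma protein genes, 14 were in the upper 5% with all rats and 1 without it, and their median residual SD was 0.229 log2 with it and 0.0378 log2 without. Of 16 hepatocyte markers, 7 were in the upper 5% with it and 1 without, with medians of 0.180 and 0.0935 log2. The acute phase list had 4 of 21 members there (3 without). Its widest member was A2m (alpha-2-macroglobulin, the main acute phase protein of the rat), at 10.55, 10.33 and 9.20 log2 in the corn oil 2 ml/kg rats.

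Corn oil 2 ml/kg rat 3 had the most large deviations: 14 genes of the upper 5% lay at least 1 log2 from the group mean, against 11 in 35% ethanol rat 2, 9 in corn oil 5 ml/kg rat 1 and 4 to 7 in the others. The sex-predominant genes deviated in opposite directions in this rat. In corn oil 2 ml/kg rat 3, 10 of 14 female-predominant genes were above the group mean, by 0.52 log2 on average, and 14 of 16 male-predominant genes were below it, by 0.41 log2 on average. The median deviations were 0.45 and -0.33 log2, and Akr1b7 alone, on the female-predominant list, deviated by 2.62 log2. Over all genes, 7877 of 14217 were above the group mean in this rat. Cyp2c12, the female-specific steroid hydroxylase, read 13.54 log2 in it and 12.05 and 12.04 log2 in its group mates. Rats of other groups came close, with Cyp2c12 at 13.43 log2 in water rat 1 and 13.31 and 13.32 log2 in corn oil 5 ml/kg rats 1 and 3. Cux2, a transcription factor of the female pattern in mouse liver, read 9.59 log2 in corn oil 2 ml/kg rat 3 and 8.16 and 8.35 log2 in its group mates.

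Among male-predominant genes, Cyp3a2 read 12.86 log2 in corn oil 2 ml/kg rat 3 and 14.62 and 14.48 log2 in its group mates. Cyp2c11, the main male-specific steroid hydroxylase, read 13.63 log2 in it and 14.33 and 14.35 log2 in them. Car3, a carbonic anhydrase, read 12.36 log2 in it and 13.78 and 13.81 log2 in them. Each of these values was the lowest of all 11 rats. Cyp2c11 was among the 150 genes of highest signal on every array, and Eif2s3y and Xist in that rat were within the range of the other rats, at 10.98 and 8.20 log2. Cyp2c and Cyp3a genes have close relatives whose transcripts their probe sets may also bind.

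Other rats differed less in these lists. Corn oil 5 ml/kg rat 1 had female-predominant genes 0.33 log2 below and male-predominant genes 0.15 log2 above its group mean. In 35% ethanol rat 3 the means were 0.22 log2 below and 0.15 log2 above, but the female-predominant mean was carried by Akr1b7, with a deviation of -2.30 log2, and the median deviation of the list was -0.06 log2. Prlr, the prolactin receptor, had its lowest value in 35% ethanol rat 3, 10.40 log2, against 11.54 and 12.27 log2 in the other rats of the group.

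Promoters of sex-predominant genes are shown because these lists were among those that varied most between rats. Sequences are from RefSeq on build GRCr8 and give the 60 bases before the start of transcription of 4 members in the upper 5%. TATAAA, the core of the TATA box, is in capitals on either strand. Only members with a match in those 60 bases were eligible, so each stretch holds a match by selection. Sult2a2, at rank 418 of spread, also matched and is not shown.
Cyp2c12 (chr1:248677035-248677094, minus strand): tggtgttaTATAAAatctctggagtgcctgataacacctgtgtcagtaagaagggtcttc
Sult2a6 (chr1:84097809-84097868, minus strand): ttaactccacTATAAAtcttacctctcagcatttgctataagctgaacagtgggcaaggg
Cyp2c11 (chr1:246175156-246175215, plus strand): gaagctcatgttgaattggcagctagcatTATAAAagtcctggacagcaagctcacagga
Obp3 (chr5:79640676-79640735, minus strand): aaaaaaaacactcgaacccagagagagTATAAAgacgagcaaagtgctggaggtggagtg
Within the window of 250 bases before to 50 bases after the start, TATAAA on either strand was found in 5 of 11 female-predominant and 7 of 14 male-predominant genes with a promoter in the table, against 14.2% of all 33469 promoters, 8.45% of those of measured genes and 84 of 579 genes (14.5%) in the upper 5% of spread. Some other lists had a high share too, such as pancreatic acinar markers (8 of 13), glucuronidation and sulfation genes (6 of 17) and P450 genes (10 of 29). Others had a low one, such as cholesterol synthesis genes (0 of 16). The motif was also present in steady members of the sex-predominant lists, such as Sult2a1, at rank 13812 of spread among 14217 genes. A match is a description of letters and not of a bound site.

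Interferon-response genes also deviated together. In corn oil 2 ml/kg rat 3, 32 of 36 were above the group mean, by 0.30 log2 on average, while 30 of 36 were below it in each of its group mates. Deviations from a group mean cancel within the group, so the counts in rats of 1 group are not independent. In 35% ethanol rat 1, 31 of 36 were above, by 0.24 log2, and in 35% ethanol rat 2, 29 of 36 were below, by 0.21 log2. Oas1a, an enzyme that makes the signal for RNA decay in infected cells, read 9.47, 9.01 and 8.39 log2 in the corn oil 5 ml/kg rats, 9.38, 9.36 and 10.55 log2 in the corn oil 2 ml/kg rats, 10.76, 9.46 and 9.76 log2 in the 35% ethanol rats and 10.38 and 10.04 log2 in the water rats. Mx1, an antiviral GTPase, read 9.81 log2 in 35% ethanol rat 1 and 8.37 to 8.91 log2 in the other 10. Usp18, which restrains interferon signalling, read 11.73, 10.45 and 11.40 log2 in the 35% ethanol rats. None of the 36 genes passed the hypervariable threshold, which only 2 of all 14217 genes passed (0.0141%).

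The promoters of 4 interferon-response genes with a wide spread are shown because the list deviated as a set. They give the 100 bases before the start (RefSeq, GRCr8). The core of the interferon-stimulated response element, GAAA, any 2 bases and GAAA again, is in capitals on either strand. These are the 4 members of widest spread among those with a match in that stretch, so each holds a match by selection.
Oas1a (chr12:41330366-41330465, plus strand): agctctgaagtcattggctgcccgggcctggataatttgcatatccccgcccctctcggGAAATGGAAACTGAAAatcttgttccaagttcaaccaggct
Gbp2 (chr2:234005627-234005726, plus strand): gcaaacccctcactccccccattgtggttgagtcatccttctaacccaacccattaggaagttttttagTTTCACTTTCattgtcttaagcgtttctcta
Ifi44l (chr2:243328623-243328722, plus strand): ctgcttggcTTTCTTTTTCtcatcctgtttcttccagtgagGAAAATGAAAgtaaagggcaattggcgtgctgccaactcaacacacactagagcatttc
Irf7 (chr1:205800024-205800123, minus strand): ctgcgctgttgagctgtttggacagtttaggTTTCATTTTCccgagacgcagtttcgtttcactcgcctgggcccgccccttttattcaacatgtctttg
In Oas1a 2 matches overlap. The motif was found in 19 of the 28 list members with a promoter in the table, against 3.92% of all promoters, 2.99% of those of measured genes and 32 of 579 genes (5.53%) in the upper 5% of spread.

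Markers of macrophages and endothelial cells shifted as sets as well. In corn oil 2 ml/kg rat 1, 10 of 11 macrophage markers were below the group mean, by 0.39 log2 on average, and in rat 3 of that group 9 of 11 were above, by 0.33 log2. Aif1, a calcium-binding protein of macrophages, read 9.20, 9.65 and 10.57 log2 in these rats, and Cd163, a scavenger receptor, 9.05, 10.05 and 10.19 log2. Clec4f, which marks Kupffer cells, read 11.40, 11.82 and 12.02 log2. Rat 3 was thus high in both macrophage markers and interferon-response genes. Both list means also shared a sign in rat 1 of that group and in corn oil 5 ml/kg rats 1 and 3. The same held in 35% ethanol rats 1 and 3. Signs differed in rat 2 of each of these groups and in both water rats. In 35% ethanol rat 2, 11 of 11 macrophage markers were above and 29 of 36 interferon-response genes below the group mean. In water rat 1 the means were -0.15 log2 for macrophage markers and 0.05 log2 for interferon-response genes. Whether the one bears on the other was not tested.

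Endothelial markers separated the 2 water rats. Of 11 markers, 10 were lower in rat 1 than in rat 2, each 0.34 log2 from the group mean on average. Over all genes, 9000 of 14217 were below the mean in water rat 1. In the corn oil 2 ml/kg group, 9 of 11 endothelial markers were below the mean in rat 2 and 9 of 11 above it in rat 3, each by 0.26 log2 on average. As deviations cancel within a group, these counts are not independent. Kdr, a receptor for vascular endothelial growth factor, read 12.40, 12.42 and 12.36 log2 in the corn oil 5 ml/kg rats, 11.43, 10.94 and 12.07 log2 in the corn oil 2 ml/kg rats, 11.97, 12.08 and 11.64 log2 in the 35% ethanol rats and 10.93 and 12.08 log2 in the water rats. The corn oil 5 ml/kg rats were above the 8 others, while the groups at lower levels overlapped. Stab2, a scavenger receptor of sinusoidal endothelium, read 9.78 log2 in water rat 1 and 10.70 log2 in water rat 2.

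**Figure D5:**
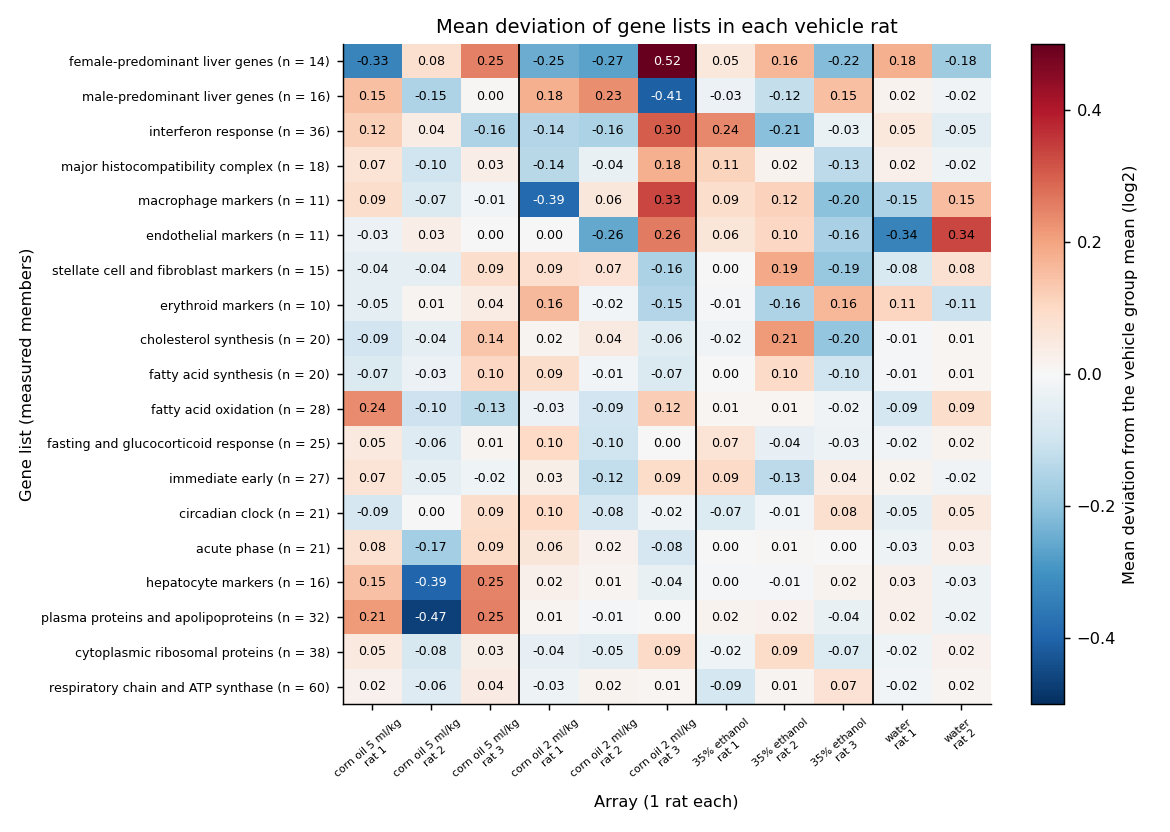
Mean deviation from the vehicle group mean (log2, colour and number) of 19 gene lists (rows, with measured members) in each vehicle rat (columns; black lines part the groups). Corn oil 2 ml/kg rat 3 stands out with 0.52 log2 for female-predominant and -0.41 log2 for male-predominant genes. Corn oil 5 ml/kg rat 2 stands out with -0.47 log2 for plasma proteins. By construction, deviations cancel within each group and the 2 water rats mirror each other.

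Genes of fasting and the glucocorticoid response had 13 of 25 members in the upper 5%. Its mean deviation, in which members above and below the group mean cancel, was between -0.10 and 0.10 log2, as rounded, in all 11 rats. Sgk1, a kinase induced by glucocorticoids, read 12.14, 10.29 and 11.12 log2 in the corn oil 2 ml/kg rats and spanned 1.39 log2 among the 35% ethanol rats, with rat 1 highest. Sds, a serine dehydratase of gluconeogenesis, read 11.41, 9.78 and 11.27 log2 in the 35% ethanol rats. Igfbp1, a binding protein for insulin-like growth factors that insulin represses, read 12.65, 11.58 and 11.84 log2 in the corn oil 5 ml/kg rats.

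Immediate early genes had 7 of 27 members in the upper 5% (5 without corn oil 5 ml/kg rat 2). Of the 27, 21 were below the group mean in corn oil 2 ml/kg rat 2, 22 were above it in rat 3 of that group and 20 were above it in 35% ethanol rat 1, by 0.09 to 0.12 log2 in size on average. In 35% ethanol rat 2, 18 were below it, with a mean of -0.13 log2. Over all 14217 genes, 8013, 7877, 6371 and 7727 lay on the same side in these rats, in that order. Egr1 read 11.66, 11.32 and 10.23 log2 in the corn oil 5 ml/kg rats, and Jun 11.29, 10.22 and 11.56 log2 in the corn oil 2 ml/kg rats. The circadian clock list had 6 of 21. Nr1d1 (REV-ERB alpha) read 9.01, 8.24 and 9.42 log2 in the 35% ethanol rats and 9.07 and 9.46 log2 in the water rats, whereas Dbp and Per1 had residual SDs of 0.20 and 0.19 log2. Ccnd1, the cyclin of entry into the cell cycle, read 12.26, 10.67 and 11.89 log2 in the corn oil 2 ml/kg rats.

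Some bright genes hardly varied between rats of a group. Among the upper 10% of signal, Cpb2 (a carboxypeptidase that slows clot breakdown) had the smallest residual SD, 0.020 log2, and read 13.53 to 13.57 log2 in corn oil 5 ml/kg rats, 13.63 to 13.64 log2 in corn oil 2 ml/kg rats, 13.71 to 13.73 log2 in 35% ethanol rats and 13.64 to 13.70 log2 in water rats. It was followed by Ndufb1 (complex I) at 0.025 log2, Tmem183a at 0.026 log2, Hmgb1 (a chromatin protein) at 0.030 log2 and Gpld1 at 0.030 log2. Psma2, a proteasome subunit, had a residual SD of 0.032 log2. Tfrc and Pgk1, both used as reference genes, had residual SDs of 0.19 and 0.16 log2.

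The vehicle groups were compared across all probe sets. A moderated F-test over the 4 groups (limma) called 225 of 31042 probe sets (0.725%) at an adjusted p below 0.05, and 81 of 14217 genes (0.57%), with 3972 probe sets at an unadjusted p below 0.05. With the ordinary F statistic, which does not share variance between probe sets, 0 were called and 3323 had an unadjusted p below 0.05, so that all calls named below rest on the moderated test. The group means of the 81 genes spanned 0.373 to 2.07 log2, with a median of 0.846 log2, and 36 of them were highest in corn oil 5 ml/kg rats, 2 in corn oil 2 ml/kg rats, 27 in 35% ethanol rats and 16 in water rats. Of the 81 genes, 10 were also in the upper 5% of residual SD. The probe set count was 58, 60 and 71 without corn oil 5 ml/kg rats 1, 2 and 3, 141 and 391 without corn oil 2 ml/kg rats 1 and 3, 75 and 129 without 35% ethanol rats 2 and 3, and 104 and 140 without water rats 1 and 2.

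Several genes of lipid synthesis and cell division that passed the test had their highest mean in 35% ethanol rats. Scd, the desaturase that makes oleic acid, averaged 11.52 ± 0.14 log2 in corn oil 5 ml/kg rats, 12.01 ± 0.25 log2 in corn oil 2 ml/kg rats, 13.40 ± 0.33 log2 in 35% ethanol rats and 11.83 ± 0.16 log2 in water rats (SD, n = 3, 3, 3 and 2, adjusted p = 0.00465 by limma). Its 3 values in 35% ethanol rats lay above all 8 others. Against 0.57% of all genes, 4 of 20 genes on the cholesterol synthesis list were called (Idi1, Sqle, Msmo1 and the sterol carrier Stard4). All 4 had their highest mean in 35% ethanol rats, with Idi1, an isomerase early in the pathway, at 11.52 log2 there and 9.77 log2 in water rats. Of 36 cell cycle genes, 5 were called (Cdkn3, Ect2, Ccnb2, Cdk1 and Top2a), again highest in 35% ethanol rats, with Cdkn3 at 8.33 ± 0.14 log2 there and 7.23 ± 0.19 log2 in water rats (adjusted p = 0.00465 by limma). Lcn2 (lipocalin 2) averaged 9.52 ± 0.03 log2 there and 8.87 ± 0.03 log2 in water rats (adjusted p = 0.00963 by limma).

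Corn oil 5 ml/kg rats stood out in other genes. Abcg5, a subunit of the transporter that exports sterols into bile, averaged 11.80 ± 0.24 log2 in them and 10.90 ± 0.06 log2 in water rats. Adamts1, a protease of the extracellular matrix, averaged 10.58 ± 0.16 log2 in them and 9.15 ± 0.30 log2 in water rats. Sparc and Col4a1, both of the matrix, averaged 12.35 ± 0.06 and 11.08 ± 0.07 log2 in them and 11.60 ± 0.12 and 10.07 ± 0.10 log2 in water rats. Pde4b, a phosphodiesterase, was lowest in them, at 9.25 ± 0.07 log2, and highest in water rats, at 11.05 ± 0.25 log2. It averaged 10.31 log2 in corn oil 2 ml/kg rats and 10.08 log2 in 35% ethanol rats. In that order, the same groups averaged 10.78 and 10.20 log2 for Abcg5 and 9.31 and 9.35 log2 for Adamts1. They averaged 11.66 and 11.85 log2 for Sparc and 10.20 and 10.42 log2 for Col4a1. Water rats were the lowest group for Adamts1, Sparc and Col4a1. The adjusted p of these genes over the 4 groups lay between 0.00471 and 0.0101 (limma), and study and vehicle cannot be told apart for them.

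The only 2 vehicles taken as 1 in-life study gave no call. Corn oil at 2 ml/kg and water differed in 0 of 31042 probe sets (0%) at an adjusted p below 0.05 by limma, with 1916 at an unadjusted p below 0.05. The methods' t-test over those groups alone likewise left 0 after adjustment, with 10 probe sets at an unadjusted p below 0.01 and a fold above 1.5. With 3 rats against 2 and the spreads above, this does not show that the 2 vehicles acted alike.

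The genes that varied among vehicle rats were in part those that varied within compound-treated groups. The residual SD within the 4 treated groups, of 3 rats each, had a median of 0.140 log2, against 0.116 log2 among vehicle rats. Of the 710 genes in the upper 5% among vehicle rats, 344 (48.5%) were in the upper 5% among treated rats too, and the 2 measures had a Spearman correlation of 0.472 across genes, which share probe sets and their noise. Of the 30 genes with the widest spread among vehicle rats, 26 were in the upper 5% among treated rats. Pxmp4 had residual SDs of 1.02 and 1.14 log2 in vehicle and treated groups, and Mlc1 1.31 and 1.11 log2. Acot1 had 0.98 log2 among vehicle rats and 0.25 log2 among treated rats, and Sgo1 0.90 and 0.10 log2.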

How the data were processed

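Affymetrix Rat Genome 230 2.0 arrays were analysed from the deposited table of log2 values. Per the labels and the study's methods, the authors normalized all arrays by RMA in Array Studio. Probe set names came from the platform annotation, with symbols updated by gene ID (20758 of 20826 matched). Replicate numbers follow the order of the samples, except that the corn oil 5 ml/kg rats were told apart by the leading animal number of their titles. Each sample was taken as 1 rat; nothing else separates biological from technical spread. Residual SDs were taken after subtracting the 4 group means. Hypervariable calls used limma 3.58.1 in R 4.3.3 (robust variance prior with a trend, 5.34 prior degrees of freedom), and group differences its moderated F-test over the 11 samples. Both were tested on simulated data of 31042 probe sets: a residual SD raised 5-fold was called in 24% and 20-fold in 99% of 100 probe sets, and a shift of 1 log2 in 1 group in 97% of 100. The precision is limited by 2 or 3 arrays a group. Named genes were the 25 of highest signal, the hypervariable ones (further genes of wide spread were named after their values were seen), the 10 steadiest bright genes, the 15 with the smallest F-test p and up to 6 members of each list. The members and lists were chosen with earlier results of these data known. Alternatives were other normalizations, filters, priors and leaving out each rat.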

Additional observations from a re-analysis of the deposited data

How the results depend on the processing

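The count of 3 hypervariable probe sets was 1 after added quantile normalization, 0 among probe sets above the median signal, 0 without a variance trend, 1 without the robust step of the prior and 2 to 12 when each rat was left out in turn. The 225 probe sets that differed between vehicle groups became 0 with the ordinary F statistic (3323 at an unadjusted p below 0.05) and 58 to 391 when each rat was left out; the other settings gave 213 to 239. The comparison of corn oil 2 ml/kg and water stayed at 0 under every setting run. The cause of these shifts was not tested, except that fewer samples enter the leave-one-out fits. Fam111a and Akr1b7 lost their calls with quantile normalization (adjusted p = 0.0561 and 0.0811 by limma) and, with Abhd3, without a trend (0.0762, 0.102 and 0.0762). The Abhd3 call also went when its probe sets were averaged (adjusted p = 0.126). Of the residual SDs of the 30 widest genes and Abhd3, 485 values under alternatives kept their side of the threshold, 7 lost the call and 4 gained it. Only Abhd3, Fam111a and Akr1b7 had a call to lose, so most of the 485 belong to genes that stayed uncalled. The 25 brightest genes were 25 of 25 under the other normalizations and averages and 22 of 25 with probe sets averaged, where Apoe ranked 2424 and Gc 62. Over all lists, 152 members were in the upper 5% of spread, against 133 without corn oil 5 ml/kg rat 2 and 136 after quantile normalization, both chosen after seeing the data. No paired analysis was possible because replicate numbers were given in sample order and each number stands for a different rat in every group. With 2 or 3 rats a group, within-group spread is estimated coarsely, and a spread carried by 1 rat cannot be checked within its group.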
